A study of Mus musculus with 12 samples.

Results

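The data concern 10 genes for adhesive and matricellular glycoproteins of the extracellular matrix outside the CCN family: the thrombospondins Thbs1, Thbs2, Thbs3 and Thbs4, the tenascins Tnc and Tnxb, periostin (Postn), SPARC (Sparc), osteopontin (Spp1) and fibronectin (Fn1). They were taken by symbol from a gene-level count table of 32168 genes, and all 10 were found there. Of the 16595 genes with enough reads to be tested, these were 10, so no member was lost to the filter on low counts, although Thbs4 passed through its WT libraries alone. Total RNA of mouse embryonic fibroblasts (MEFs), cells grown out of E13.5 embryos and kept in medium with 10% serum to passage 4 to 10, had been sequenced in 12 libraries. The cells were wild type (WT) or carried a double knockout of the Hippo pathway kinases LATS1/2 (DKO), and each genotype received the vehicle DMSO or MGH-CP1 (CP1) at 1 µM in DMSO. Treatment lasted 2 or 4 days, which gave 8 groups, with 2 libraries in each CP1 group and 1 in each DMSO group. The labels name no line, clone or embryo and do not say how the deletion was made, so the p-values measure the spread between these libraries, which may be technical.

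Thrombospondins, tenascins, periostin, SPARC and osteopontin are secreted proteins that act mainly as signals and modulators within the matrix rather than as its load-bearing fibres, and fibronectin is the scaffold to which cells and many of these proteins attach. Their receptors include integrins, CD47, CD36 and CD44. The kinases LATS1 and LATS2 phosphorylate YAP and TAZ and so keep these co-activators from the TEAD transcription factors, and MGH-CP1 is a small molecule that blocks the palmitoylation of TEAD proteins. YAP and TAZ are known in fibroblasts for their part in matrix production and in responses to stiff surroundings.

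Library totals ran from 16970834 to 25299262 counts. The repeats of WT CP1 at 2 days (chi-square of 50.6 per degree of freedom over genes of 20 or more reads) and the DKO DMSO libraries of 2 and 4 days (43.8) stood further apart than the other pairs of an arm, at 1.95 to 5.84. Levels are given as CPM (counts per 1e6 counts of a library) over library sizes scaled by TMM, and levels of different genes are compared only as CPM per kilobase of exon. Lats1 stood at 14.3% to 35.6%, and Lats2 at 26.3% to 31.1%, of the WT DMSO mean in the 6 DKO libraries, and the data do not say which exons these reads came from. All 12 fibroblast markers averaged above 1 CPM in WT cells, against 10 in DKO cells under DMSO and 11 in DKO cells under CP1. Their summed level was 26729 to 27244 CPM in WT DMSO libraries, 17465 to 24051 CPM in WT CP1 libraries, 10675 to 11411 CPM in DKO DMSO libraries and 14662 to 18193 CPM in DKO CP1 libraries. Thy1 had 0 counts and Lum at most 0.292 CPM in DKO DMSO libraries, and Dcn stood at 1.05 and 1.93 CPM there. Of the 12, Vim alone was higher there than in WT DMSO libraries, at 4042 to 4939 CPM against 3093 to 3129 CPM. Some fell less, such as Twist1 at 202 to 212 CPM against 293 to 307 CPM and Pdgfrb at 183 to 234 CPM against 281 to 290 CPM. Endothelial markers summed to 58.3 to 73.8 CPM in DKO DMSO libraries and to at most 23.8 CPM elsewhere, nearly all Kdr in DKO cells, with Pecam1 and Cdh5 below 1 CPM in every library, and epithelial markers summed to at most 12.2 CPM. The part of these lists in the results was not tested. In bulk RNA, fewer cells of a type and less RNA per cell cannot be told apart.

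Coordinates are those of the deposited table on mouse build mm10, and all 10 genes are protein-coding. Thbs1 (ENSMUSG00000040152.8) lies on chromosome 2 from 118111876 to 118127133 on the plus strand. Thbs2 (ENSMUSG00000023885.9) lies on chromosome 17 from 14665500 to 14694235 on the minus strand, and Tnxb (ENSMUSG00000033327.16) on the same chromosome from 34670535 to 34719815 on the plus strand. Thbs3 (ENSMUSG00000028047.11) and Postn (ENSMUSG00000027750.16) are both on the plus strand of chromosome 3, from 89215180 to 89226837 and from 54361109 to 54391037. Thbs4 (ENSMUSG00000021702.7) lies on chromosome 13 from 92751590 to 92794818 on the minus strand. Tnc (ENSMUSG00000028364.15) is on chromosome 4 from 63959785 to 64047015 on the minus strand, and Sparc (ENSMUSG00000018593.13) on chromosome 11 from 55394500 to 55423183 on the same strand. Spp1 (ENSMUSG00000029304.14) is on chromosome 5 from 104435118 to 104441050 on the plus strand. Fn1 (ENSMUSG00000026193.15) is on chromosome 1 from 71585520 to 71653200 on the minus strand. Exons of 5 of the 10 genes overlap exons of another gene, most for Spp1, which shares 309 bases or 18.8% of its exon length with Gm42793 on the same strand, a gene with 48 counts in all 12 libraries. Thbs3 shares 318 bases with Mtx1 on the other strand, and whether counting used strand is not given in the sources used here, so reads of this stretch are uncertain.

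The 3 genes with the widest ranges across the libraries were Thbs4, Thbs2 and Postn, and the 250 bases before the RefSeq start of each are shown in gene orientation, from RefSeq on GRCm38.p6 (mm10), because their levels set the genotypes or treatments furthest apart. For Postn the start nearest the gene's first base in the deposited table was taken. Capitals mark CATTCC, which is GGAATG on the other strand, the core letters that TEAD factors are known to bind.
Thbs4, chr13:92794819-92795068, minus strand: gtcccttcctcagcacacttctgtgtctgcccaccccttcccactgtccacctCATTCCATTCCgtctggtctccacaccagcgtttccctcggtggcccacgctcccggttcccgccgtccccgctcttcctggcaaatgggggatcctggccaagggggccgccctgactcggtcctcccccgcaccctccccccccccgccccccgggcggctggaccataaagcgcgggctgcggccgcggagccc
Thbs2, chr17:14694263-14694512, minus strand: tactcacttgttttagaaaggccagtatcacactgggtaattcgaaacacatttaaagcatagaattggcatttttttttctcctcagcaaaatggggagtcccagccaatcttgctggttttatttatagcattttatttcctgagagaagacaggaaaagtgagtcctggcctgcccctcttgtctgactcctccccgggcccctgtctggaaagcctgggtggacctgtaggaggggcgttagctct
Postn, chr3:54360857-54361106, plus strand: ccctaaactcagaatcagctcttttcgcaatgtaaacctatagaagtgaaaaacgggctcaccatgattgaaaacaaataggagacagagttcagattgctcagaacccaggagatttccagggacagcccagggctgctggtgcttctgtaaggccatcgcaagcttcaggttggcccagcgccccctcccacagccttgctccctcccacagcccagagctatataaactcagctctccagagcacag
Promoter windows could be matched for 8 of the 10 genes, 11 windows in all, and Thbs1 and Fn1 had none. The only Sparc window belongs to a start 3103 bases inside the gene's first base in the deposited table. GGAATG was searched on both strands, and of these 11 windows only that of Thbs4 held it, as 2 copies of CATTCC that share a base and begin 197 and 192 bases before the start. Among all 32851 promoter windows of 250 bases, 12.6% held GGAATG. The letters TGANTCA, an AP-1 site, were likewise searched on both strands and occurred only in the window of Tnxb, 55 bases before its start, against 6.75% of all windows. A match in these letters is a description of the window and shows no binding, and the Thbs2 and Postn windows, which hold neither motif, say nothing of more distant sites.

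In WT cells under DMSO the transcripts of Sparc and Fn1 were the most abundant of the 10 per length. Sparc stood at 839 ± 4.11 CPM per kilobase (SD, n = 2) and Fn1 at 459 ± 19.2. Thbs1 at 122 ± 6.49 and Tnc at 116 ± 2.50 came next and did not differ beyond their spread. Spp1 at 72.9 ± 3.92 and Postn at 64.7 ± 1.36 followed, then Thbs2 at 32.9 ± 0.196, Thbs3 at 22.1 ± 0.682 and Thbs4 at 15.1 ± 0.431. Tnxb was the least abundant, at 0.725 ± 0.0736 CPM per kilobase. In DKO cells under DMSO the order was led by Thbs1, at 478 ± 14.0 CPM per kilobase, with Sparc at 341 ± 20.8 and Fn1 at 158 ± 15.5 behind it.

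**Figure D1:**
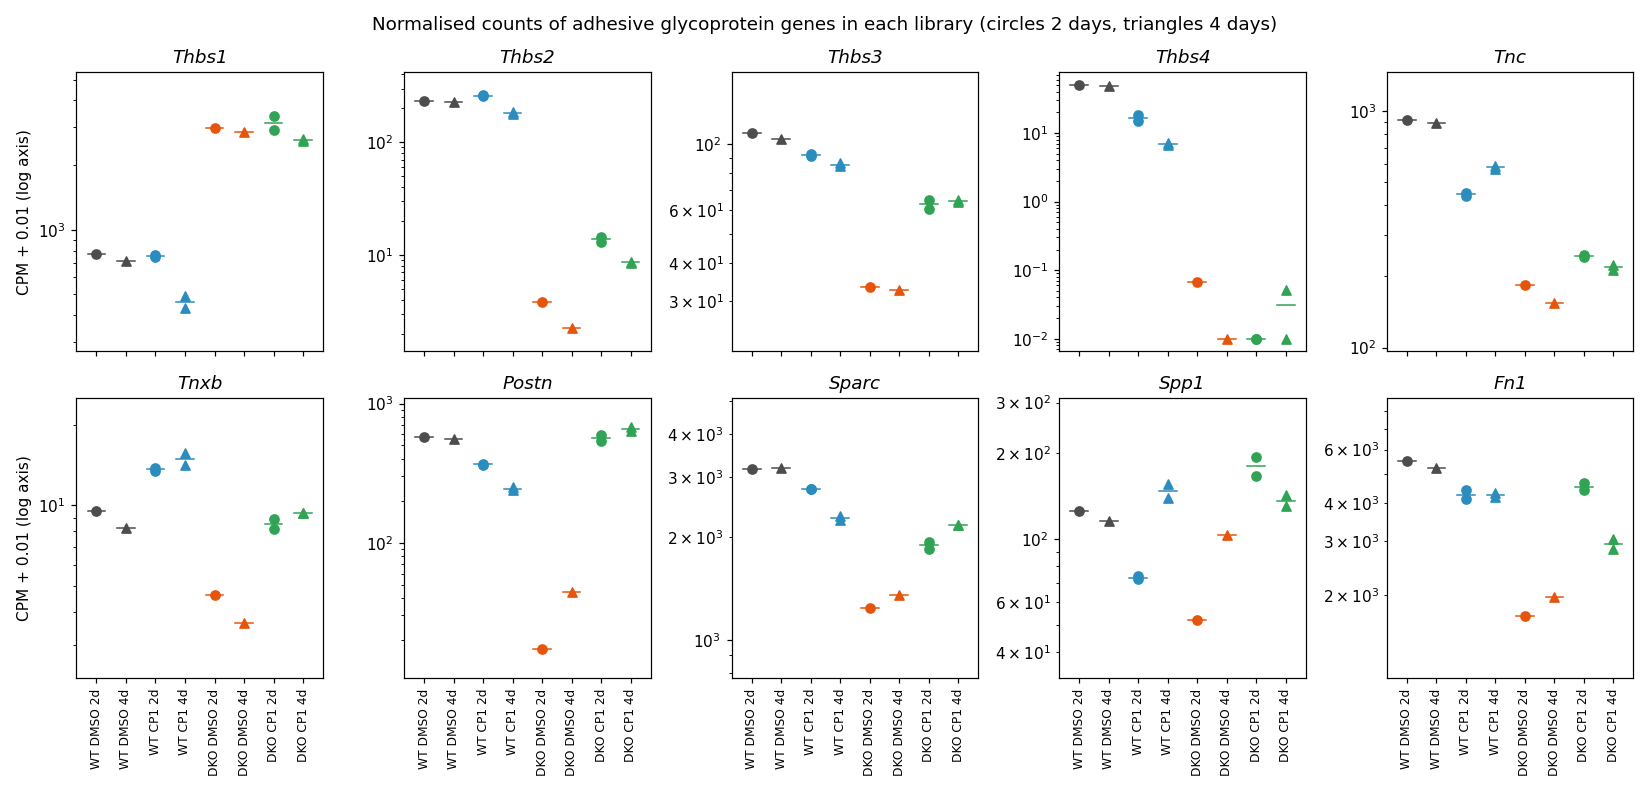
Level of each of the 10 genes in each of the 12 libraries, as CPM plus 0.01 on a log axis, against the 8 groups of genotype, treatment and day. Each point is a library (circles 2 days, triangles 4 days), bars are group means, and each panel has its own axis. Thbs1 is higher in all 6 DKO libraries than in any WT library, and Thbs4 has at most 1 count in any DKO library. Postn is lowest in the 2 DKO DMSO libraries, and is lower in the WT CP1 libraries than in the WT DMSO libraries.

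The first comparison asked how loss of LATS1/2 went with these genes in cells given the vehicle alone. Thbs4 is left out of the counts between genotypes, since it passed the filter through its WT libraries alone. Of the other 9 genes, Thbs1 rose in DKO cells under DMSO, 7 fell and Spp1 did not pass the test. Among all 16595 genes tested in this comparison 67.5% were called, 32.7% as higher and 34.8% as lower, so a call as such was common. The median of the 9 log2 fold changes was −1.52, beside −0.06 over all genes tested. Calls are those of edgeR's quasi-likelihood test at a Benjamini-Hochberg adjusted p below 0.05 over all genes, with both days averaged.

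Among the thrombospondins, the 2 trimeric members went in opposite directions. Thbs1, known for activating latent TGF-beta and for binding CD47 and CD36, stood at 769 and 714 CPM in the WT DMSO libraries at 2 and 4 days and at 2964 and 2844 CPM in the DKO DMSO libraries. The genotypes did not overlap, and Thbs1 rose by 1.96 log2 units (SE 0.15, edgeR adjusted p = 1.05e-07). Thbs2, an inhibitor of angiogenesis that also affects collagen fibril assembly, stood at 232 and 230 CPM in WT and at 3.84 and 2.22 CPM in DKO cells. It fell by 6.30 log2 units (SE 0.16, adjusted p = 7.97e-12), to 0.0127 of the WT level. The DKO values rest on 66 and 38 reads.

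Of the pentameric members, Thbs3 fell and Thbs4 had almost no reads in DKO cells. Thbs3, known from the growing skeleton, was at 109 and 104 CPM in WT and at 33.3 and 32.5 CPM in DKO cells, a log2 change of −1.69 (SE 0.08, edgeR adjusted p = 9.86e-10). Thbs4, known from tendon and muscle, was at 50.8 and 48.8 CPM in WT. In the DKO DMSO libraries it had 1 count at 2 days and 0 at 4 days. Over both libraries this was 2031 counts in WT against 1 in DKO cells, a ratio of 1709 after scaling (exact binomial 95% interval for counting error alone, 306 to 67517). Of the 4 tendon markers, Scx was at 13.4 to 14.7 CPM in WT DMSO libraries and at 41.4 to 44.7 CPM in DKO DMSO libraries. Fmod went the other way, from 95.7 to 106 CPM in WT to 14.4 to 15.6 CPM in DKO libraries. So did Mkx, from 30.4 to 35.7 CPM to 14.6 to 16.1 CPM. Tnmd was low in both, at 0.293 to 0.344 CPM in WT DMSO libraries and 0 counts in DKO DMSO libraries. The summed level of the 4 was 140 to 157 CPM and 70.4 to 76.3 CPM, respectively. Their part in the Thbs4 difference was not tested.

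Both tenascins fell. Tnc, a glycoprotein of embryos and wounds that loosens cell adhesion, stood at 917 and 889 CPM in WT and at 183 and 154 CPM in DKO cells under DMSO, a log2 change of −2.43 (SE 0.11, edgeR adjusted p = 7.67e-10). Tnxb, which is needed for normal collagen organisation in skin, was at 9.49 and 8.22 CPM in WT and at 4.60 and 3.62 CPM in DKO cells. Its log2 change was −1.11 (SE 0.17, adjusted p = 7.55e-05), on 62 to 194 reads per library.

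Periostin and the collagen-binding SPARC were also lower in DKO cells, and osteopontin did not pass the test. Postn, which binds integrins and links tenascin-C with collagen, was at 572 and 555 CPM in WT cells. In the DKO DMSO libraries it was at 17.1 CPM at 2 days and 44.0 CPM at 4 days, values further apart in ratio than those of any other of the 10 genes with more than 1 read there. The change was −4.30 (SE 0.29, edgeR adjusted p = 1.67e-06), and from −4.94 to −3.80 with any library left out. Sparc was at 3166 and 3188 CPM in WT and at 1237 and 1349 CPM in DKO cells, a log2 change of −1.30 (SE 0.10, adjusted p = 1.15e-07). Spp1, a ligand of integrins and CD44 made by bone cells, macrophages and injured fibroblasts, was at 125 and 116 CPM in WT and at 52.1 and 104 CPM in DKO cells. The genotypes did not overlap for Spp1, but the 2 DKO values differed from each other, and the log2 change of −0.68 (SE 0.41, 95% interval −1.65 to 0.30) had an adjusted p of 0.185. The Spp1 value was −1.44 (adjusted p = 0.033) without the DKO DMSO library of 4 days, and −0.05 and −0.08 (adjusted p = 0.94 and 0.901) without the DKO or the WT DMSO library of 2 days. It was −1.20 (adjusted p = 0.0542) without the WT DMSO library of 4 days and −0.71 (adjusted p = 2.02e-06) with 8 group means in place of an averaged day.

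Fibronectin fell as well. Fn1 stood at 5520 and 5203 CPM in WT and at 1712 and 1969 CPM in DKO cells under DMSO, a log2 change of −1.52 (SE 0.17, edgeR adjusted p = 4.07e-06). The summed level of the 10 genes per length was 1766 and 1723 CPM per kilobase in the WT DMSO libraries and 1026 and 1088 in the DKO DMSO libraries. Thbs1 made up 7.0% ± 0.248 (SD, n = 2) of that sum in WT cells and 45.3% ± 3.19 in DKO cells.

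**Figure D2:**
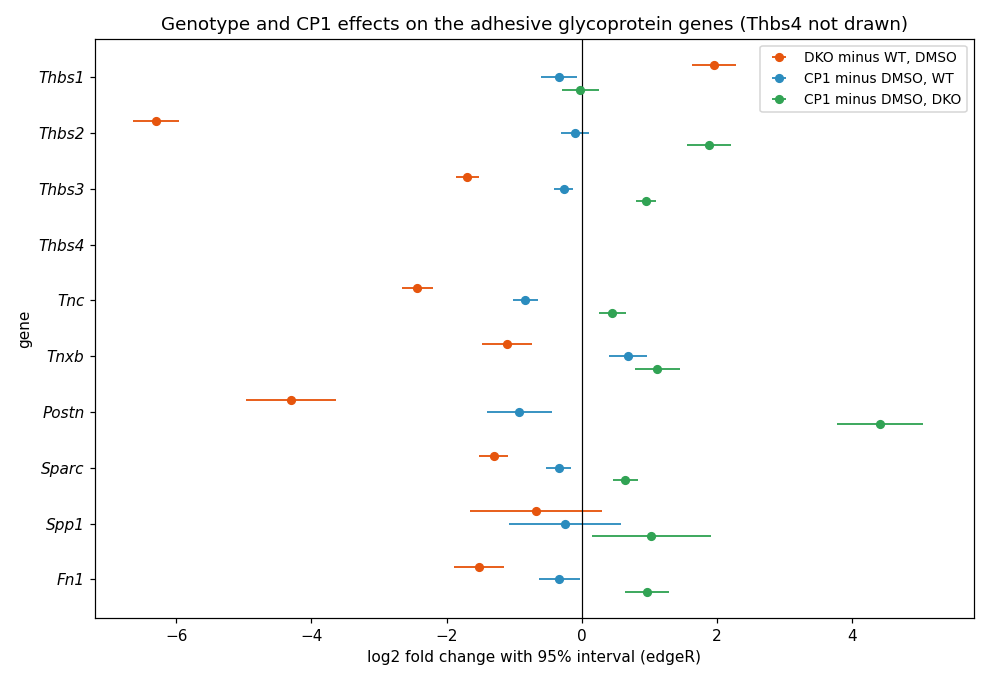
Log2 fold changes of the genes (points, with unadjusted 95% intervals from edgeR) for DKO minus WT cells under DMSO, CP1 minus DMSO in WT cells and CP1 minus DMSO in DKO cells, with Thbs4 left out because it had 1 count over the 2 DKO DMSO libraries. Genes with a negative genotype effect lie to the right of 0 for CP1 in DKO cells, Postn furthest, at −4.30 and 4.42. Thbs1 has a CP1 effect of −0.02 there. Both effects share the 2 DKO DMSO libraries with opposite sign, so their relation is not tested, and Spp1 was called in neither.

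CP1 was then compared with DMSO in DKO cells, the genotype in which YAP and TAZ lack their LATS kinases. Of the 9 genes with reads enough for a fold, 7 rose, none fell, and Thbs1 and Spp1 did not pass the test. Over all genes 51.9% were called, 24.2% as higher and 27.6% as lower. The median of the 9 log2 fold changes was 0.97, beside 0.02 over all genes. These fold changes share the 2 DKO DMSO libraries with the genotype comparison above, so the values of both are set side by side and no relation between them is tested.

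Postn had the largest of these changes. It stood at 595 and 536 CPM in the DKO CP1 libraries of 2 days and at 682 and 638 CPM in those of 4 days, all above the 17.1 and 44.0 CPM under DMSO. The log2 change was 4.42 (SE 0.28, edgeR adjusted p = 3.49e-06), or 21.4-fold. By day, the CP1 mean was 33.2 times the DMSO value at 2 days and 15.02 times that at 4 days, each against 1 DMSO library. The DKO CP1 range for Postn overlapped that of WT cells under DMSO.

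The other genes rose by less. Thbs2 stood at 13.1, 14.5, 8.50 and 8.72 CPM in the 4 DKO CP1 libraries, which were all above the DMSO pair, with a log2 change of 1.89 (SE 0.15, edgeR adjusted p = 5.75e-07). Its level stayed far under the lowest WT library, at 178 CPM. Thbs3 was at 65.1, 60.6, 65.0 and 63.9 CPM and rose by 0.95 (SE 0.07, adjusted p = 2.86e-07), ending between DKO and WT cells under DMSO. Tnxb, at 8.17, 8.88, 9.33 and 9.39 CPM, rose by 1.12 (SE 0.15, adjusted p = 5.71e-05) into the range of WT DMSO cells. Tnc, at 241, 246, 212 and 224 CPM, rose by 0.46 (SE 0.09, adjusted p = 0.00104), the smallest change among the 7.

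Sparc and Fn1 rose in DKO cells under CP1 as well. Sparc stood at 1940, 1842, 2168 and 2171 CPM, a log2 change of 0.65 (SE 0.09, edgeR adjusted p = 4.97e-05). Fn1 stood at 4408 and 4662 CPM at 2 days and at 2831 and 3044 CPM at 4 days, a log2 change of 0.97 (SE 0.15, adjusted p = 1.55e-04). For Fn1 every CP1 library was above both DMSO libraries, and the 2 days differed from each other by more than the repeats of a day.

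Thbs1 and Spp1 were the genes without a call. Thbs1 stood at 3393, 2906, 2649 and 2582 CPM in DKO cells under CP1, a range that spans the DMSO pair, with a log2 change of −0.02 (SE 0.12, 95% interval −0.29 to 0.25, edgeR adjusted p = 0.921). On the log2(TPM + 1) scale the value for Thbs1 was 0.29 (adjusted p = 0.178), where the median of all genes was 0.23. Spp1 stood at 166, 194, 142 and 130 CPM, all above its DMSO pair of 52.1 and 104 CPM, with a log2 change of 1.03 (SE 0.37, adjusted p = 0.0536). This Spp1 value was 0.39 (adjusted p = 0.475) without the DKO DMSO library of 2 days and 1.78 (adjusted p = 0.0162) without that of 4 days. That of Spp1 passed the threshold with DESeq2 (adjusted p = 0.0114), with 8 group means (adjusted p = 7.66e-09) and on the log2(TPM + 1) scale (adjusted p = 0.012). Of the 4 DKO CP1 libraries, 1 had a Thbs4 count, a single read at 4 days, and no fold is given where both arms hold 1 count.

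Other measurements moved with these values. Under CP1 the summed level of the fibroblast markers in DKO libraries was above that under DMSO. Vim did not follow, at 4042 to 4939 CPM under DMSO and 3360 to 4167 CPM under CP1. Fbn1 (645 to 874 and 750 to 790 CPM) and Pdgfrb (183 to 234 and 233 to 256 CPM) overlapped between the treatments. The other fibroblast markers were higher in every DKO CP1 library, Thy1 at no more than 1.23 CPM. The 5 smooth muscle markers, nearly all Acta2, summed to 440 to 489 CPM against 856 to 900 CPM. Macrophage markers, from cells known to make much osteopontin, summed to 8.44 to 15.02 CPM in DKO CP1 libraries and 10.2 to 10.9 CPM in DKO DMSO libraries, with Adgre1 and Tyrobp at 0 counts in both arms. Lyz2 of that list stood at 0.935 to 1.11 CPM under DMSO and at 3.97 to 5.44 CPM under CP1. Csf1r went the other way, from 1.64 to 2.10 CPM under DMSO to 0.126 to 0.556 CPM under CP1. The 6 bone markers in the table summed to 1.45 to 1.75 CPM under DMSO and 3.56 to 5.37 CPM under CP1 in DKO libraries, with Phex at 0.466 to 0.935 CPM and 1.94 to 3.97 CPM. The summed tendon markers went from 70.4 to 76.3 CPM under DMSO to 128 to 148 CPM under CP1, with Fmod at 14.4 to 15.6 CPM and 77.8 to 95.8 CPM. Mkx of that list was at 14.6 to 16.1 CPM under DMSO and 19.3 to 27.3 CPM under CP1. Scx went the other way, at 41.4 to 44.7 CPM under DMSO and 25.7 to 31.7 CPM under CP1, and Tnmd was near 0 in both arms. Lats1 itself stood at 14.3% and 22.1% of the WT DMSO mean in the DKO DMSO libraries and at 31.2% to 35.6% in the DKO CP1 libraries. The part of these markers and of the Lats1 level in the CP1 differences was not tested.

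CP1 was also compared with DMSO in WT cells. Of the 10 genes, Tnxb rose, 5 fell and 4 did not pass the test, beside 17.8% of all genes called, 7.50% as higher and 10.3% as lower. The median of the 10 log2 fold changes was −0.33, beside 0.01 over all genes. With 8 group means 9 of the 10 were called, beside 36.1% of all genes, and without the WT DMSO library of 4 days 2 were, beside 7.12%. Smooth muscle markers summed to 1075 to 1303 CPM in WT CP1 libraries and 699 to 711 CPM in WT DMSO libraries, nearly all Acta2. Beside this stood the lower fibroblast sum given above, in which Thy1 and Twist1 were not lower. Thy1 was at 119 to 121 CPM under DMSO and 122 to 138 CPM under CP1, and Twist1 at 293 to 307 and 305 to 395 CPM. The part of these markers in the WT differences was not tested.

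Thbs4 changed most. It stood at 18.3 and 15.2 CPM in the WT CP1 libraries of 2 days and at 7.22 and 6.73 CPM in those of 4 days, below both DMSO libraries. It fell by 2.21 log2 units (SE 0.22, edgeR adjusted p = 7.65e-05). The summed tendon markers were also lower in WT cells under CP1, at 64.8 to 106 CPM, and their part in the Thbs4 change was not tested. Tnc stood at 452 and 438 CPM at 2 days and at 571 and 587 CPM at 4 days, again below both DMSO libraries, with a log2 change of −0.84 (SE 0.09, adjusted p = 1.92e-05). The calls of Thbs4 and Tnc held with any library left out.

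The other WT calls were lost when single libraries were left out. Without a WT DMSO library, the fit sets the DMSO level through the day term of the CP1 libraries. Postn was at 367, 364, 250 and 241 CPM under CP1 and fell by 0.92 log2 units (SE 0.21, edgeR adjusted p = 0.0177). Sparc was at 2775, 2771, 2307 and 2238 CPM and fell by 0.34 (SE 0.08, adjusted p = 0.0131). Both genes lost their call without the WT DMSO library of 4 days (adjusted p = 0.244 and 0.33) or without either WT CP1 library of 4 days (adjusted p = 0.053 to 0.0615). Thbs3 was at 92.7, 90.9, 84.3 and 86.1 CPM and fell by 0.27 (SE 0.06, adjusted p = 0.0104), a call that was lost without either WT DMSO library (adjusted p = 0.0861 and 0.146). Tnxb stood at 13.47, 13.9, 14.1 and 15.7 CPM, all above WT cells under DMSO, and rose by 0.69 (SE 0.13, adjusted p = 0.0027). Tnxb missed the threshold once the WT DMSO library of 4 days was left out (adjusted p = 0.104) and on the log2(TPM + 1) scale (adjusted p = 0.224).

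Fn1, Thbs1, Spp1 and Thbs2 were not called in WT cells. Fn1 stood at 4418, 4121, 4322 and 4193 CPM, all below the DMSO pair, with a log2 change of −0.33 (SE 0.14, edgeR adjusted p = 0.133). With 8 group means the same fold change of Fn1 had an adjusted p of 3.82e-07. Thbs1 stood at 764 and 750 CPM at 2 days and 490 and 434 CPM at 4 days, and its averaged value of −0.34 (SE 0.12, adjusted p = 0.0807) joins unlike days. With 8 group means it had an adjusted p of 0.000112, and with DESeq2 of 0.0447. Spp1 was at 73.8 and 72.5 CPM at 2 days, below its DMSO pair, and at 139 and 155 CPM at 4 days, above it. Its averaged value was −0.24 (SE 0.35, adjusted p = 0.716). Thbs2, at 264, 255, 178 and 184 CPM, lay on both sides of its DMSO pair, at −0.10 (SE 0.10, adjusted p = 0.561).

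The difference between the CP1 effects in DKO and WT cells was tested directly. Of the 9 genes read, 6 had a more positive CP1 effect in DKO cells and 3 did not pass the test, beside 42.4% of all genes called, 20.1% as more positive and 22.3% as more negative. The difference was 5.34 on the log2 scale for Postn (SE 0.34, edgeR adjusted p = 6.57e-06), 1.99 for Thbs2, 1.30 for Fn1, 1.29 for Tnc, 1.22 for Thbs3 and 0.99 for Sparc. Of these 6, Postn, Tnc, Thbs3 and Sparc fell in WT cells and rose in DKO cells. Tnxb rose in both genotypes, and its difference of 0.43 had an adjusted p of 0.103. Thbs1 and Spp1 had differences of 0.32 (adjusted p = 0.167) and 1.27 (adjusted p = 0.0838). With DESeq2 that of Spp1 was called (adjusted p = 0.0315), and with 8 group means those of Thbs1, Tnxb and Spp1 were.

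Under CP1 the genotypes differed in 7 of the 9 genes read, with 2 higher and 5 lower in DKO cells, beside 59.5% of all genes called, 28.9% as higher and 30.6% as lower. Thbs1 was higher in DKO cells by 2.28 log2 units (SE 0.11, edgeR adjusted p = 1.26e-09), and so was Postn by 1.04 (SE 0.18, adjusted p = 9.53e-04), which under DMSO had been lower. Thbs2 remained lower at −4.32 (SE 0.09, adjusted p = 1.51e-12), as did Tnc at −1.14, Tnxb at −0.68, Thbs3 at −0.47 and Sparc at −0.31. Thbs4 had 1146 counts over the 4 WT CP1 libraries and 1 over the 4 DKO CP1 libraries, a ratio of 909 (exact binomial 95% interval, counting error alone, 163 to 35939). The calls of Thbs3, Tnxb and Sparc were lost on the log2(TPM + 1) scale (limma adjusted p = 0.0948, 0.0791 and 0.696), where the median of all genes was 0.19. On TPM rescaled over protein-coding genes 2 of the 9 genes were again called as higher and 5 as lower. Fn1 at −0.22 (SE 0.12, adjusted p = 0.125) and Spp1 at 0.60 (SE 0.28, adjusted p = 0.113) did not pass the test, whereas with 8 group means both did (adjusted p = 2.02e-06 and 1.88e-07).

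**Figure D3:**
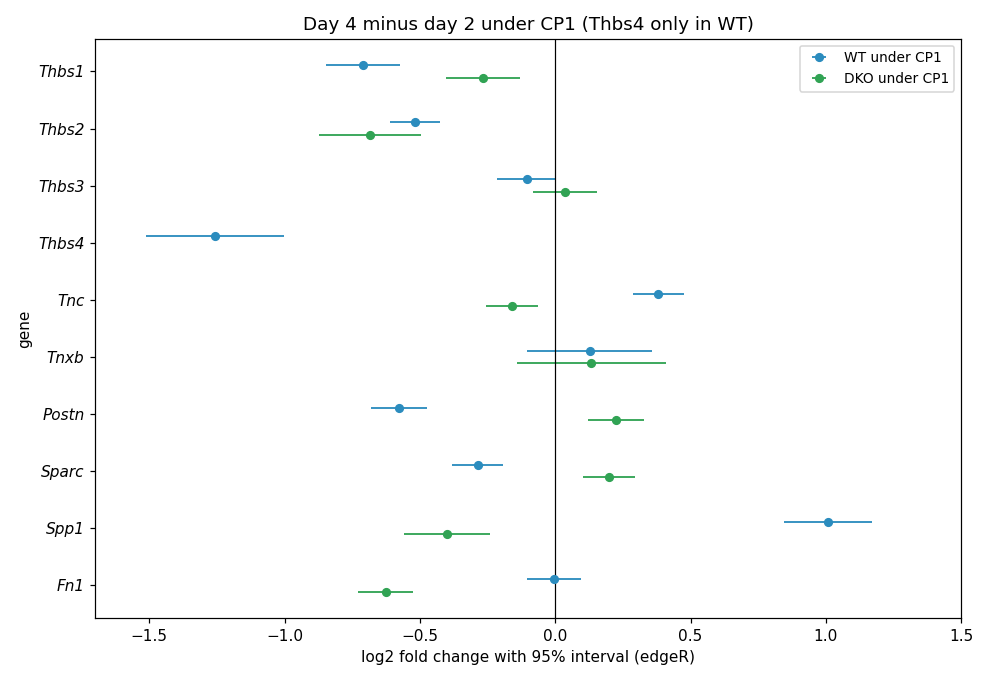
Log2 fold change between 4 and 2 days of CP1 (points, with unadjusted 95% intervals from edgeR) for each gene in WT and in DKO cells, with Thbs4 drawn for WT cells alone. Spp1 lies at 1.01 in WT and −0.40 in DKO cells, and Fn1 at −0.00 and −0.63.

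Between 2 and 4 days of CP1, 7 of the 10 genes changed in WT cells, 2 up and 5 down, beside 15.3% of all genes called, 7.0% as higher and 8.26% as lower. Thbs4 fell by 1.26 log2 units (edgeR adjusted p = 2.92e-08), Thbs1 by 0.71, Postn by 0.58, Thbs2 by 0.52 and Sparc by 0.29. Spp1 rose by 1.01 (adjusted p = 6.57e-07) and Tnc by 0.38. In DKO cells 7 of the 9 genes read changed, 2 up and 5 down, beside 24.2% of all genes called, 12.1% as higher and 12% as lower. There Thbs2 fell by 0.68, Fn1 by 0.63 (adjusted p = 4.96e-10), Spp1 by 0.40, Thbs1 by 0.27 and Tnc by 0.16, and Postn rose by 0.22 and Sparc by 0.20. Among the DKO calls, that of Thbs1 was lost without the second CP1 library of 4 days (adjusted p = 0.0586), and those of Tnc and Postn without the first (adjusted p = 0.206 and 0.075). On the log2(TPM + 1) scale 5 genes were called in WT and 2 in DKO cells, beside 3.63% and 4.63% of all genes, while the share of TPM in genes under 200 bases differed between the WT CP1 libraries. Each day had 2 CP1 libraries, and these fits pool the spread over all groups.

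The day effects themselves differed between the genotypes for 6 of the 9 genes, 3 in each direction, beside 10.1% of all genes called, 5.37% as more positive in DKO cells and 4.74% as more negative. The difference, DKO minus WT, was −1.41 for Spp1 (edgeR adjusted p = 1.16e-06), −0.62 for Fn1, −0.54 for Tnc, 0.80 for Postn (adjusted p = 6.97e-09), 0.49 for Sparc and 0.44 for Thbs1. In the DMSO libraries, at 1 per day, Spp1 was at 125 and 116 CPM in WT and at 52.1 and 104 CPM in DKO cells. The ratio of CP1 to DMSO for Spp1 was 0.586 at 2 days and 1.27 at 4 days in WT cells, and 3.45 and 1.31 in DKO cells. For Fn1 in DKO cells it was 2.65 at 2 days and 1.49 at 4 days.

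**Figure D4:**
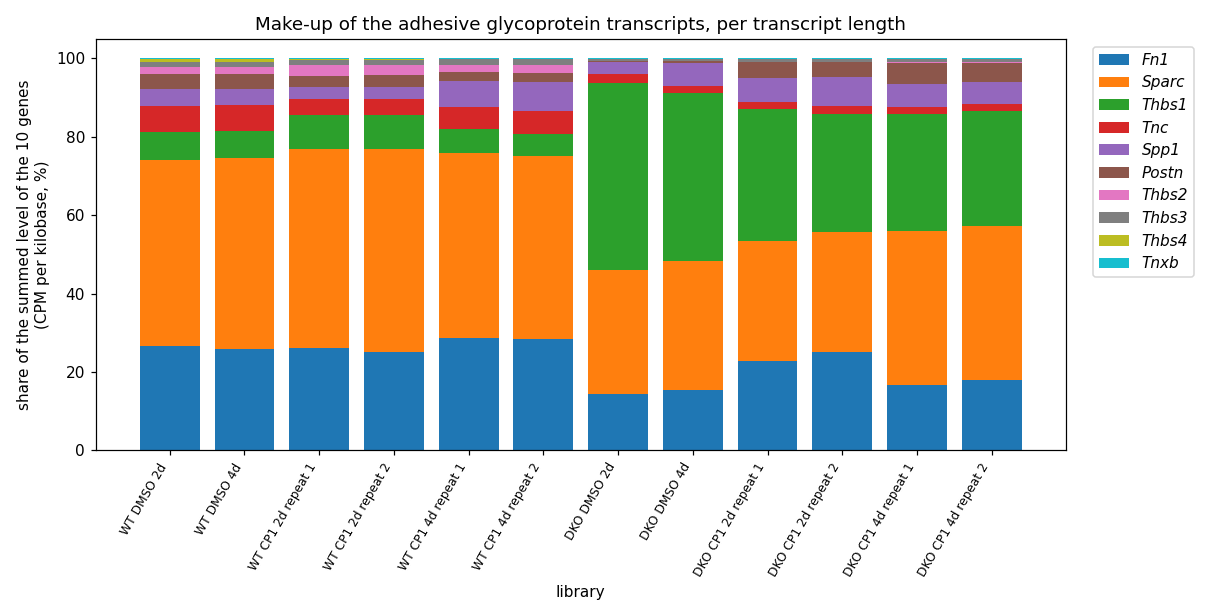
Share of each gene in the summed CPM per kilobase of the 10 genes (stacked bars, in percent) in each of the 12 libraries. Sparc and Fn1 make up most of the sum in WT libraries, and Thbs1 takes 45.3% on average in the 2 DKO DMSO libraries and 30.7% in the 4 DKO CP1 libraries.

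As shares of the summed level per length, Thbs1 held 7.34% ± 1.63 (SD, n = 4) in WT cells under CP1 and 30.7% ± 1.95 in DKO cells under CP1, between WT cells and DKO cells under DMSO. Postn held 3.71% ± 0.0123 (n = 2) in WT DMSO libraries, 0.328% ± 0.193 (n = 2) in DKO DMSO libraries and 4.60% ± 0.722 (n = 4) in DKO CP1 libraries. The ratio of Thbs1 to Thbs2 per length was 3.83 and 3.58 in the WT DMSO libraries and from 2.71 to 3.39 in WT CP1 libraries. It was 890 and 1476 in the DKO DMSO libraries and from 231 to 360 in DKO CP1 libraries. The 2 genotypes did not overlap in this ratio, and within DKO cells Thbs2 was called for CP1 and Thbs1 was not.

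Genes related to these were read from 3 lists, of which 34 other adhesive glycoproteins, 19 receptors and 17 genes of TGF-beta signalling and matrix gene control were tested. In DKO against WT cells under DMSO, 6 of the other adhesive glycoproteins rose and 23 fell, with a median log2 fold change of −1.26. Fbln1, an elastic-fibre and basement membrane glycoprotein, had mean levels of 306 CPM in WT and 11.1 CPM in DKO cells (log2 fold change −4.78, SE 0.13, edgeR adjusted p = 2.01e-11). Nid1, a linker of basement membranes, had means of 853 and 96.6 CPM (−3.15, adjusted p = 1.36e-11), and Spon2 of 32.9 and 1.90 CPM (−4.11, adjusted p = 1.03e-10). Among the receptors 5 rose and 12 fell. Itga3, the integrin alpha chain of a laminin receptor, rose by 3.34 on the log2 scale (42.0 to 426 CPM), and Cd47, a thrombospondin receptor, fell by 2.21 (530 to 115 CPM). Cacna2d1, a calcium channel subunit and thrombospondin receptor, fell by 2.12. Of the TGF-beta and control genes 8 rose and 6 fell, and the leading 3, Prrx1 (−2.18), Egr1 (−2.14) and Tgfbr1 (−1.79), were lower. These counts stand beside the 67.5% called over all genes.

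Under CP1 in DKO cells 15 of the 34 other adhesive glycoproteins rose and 10 fell, beside the 51.9% called over all genes. Fbln1 rose to a mean of 140 CPM (log2 fold change 3.62, SE 0.12, edgeR adjusted p = 6.82e-10) and Matn2, a matrix adaptor protein, from 19.9 to 97.2 CPM (2.30, adjusted p = 5.64e-09), and Npnt, an integrin ligand of basement membranes, fell by 1.69. Nid1 had 109 CPM under CP1 and did not pass the test (adjusted p = 0.055). Of the receptors 8 rose and 4 fell, with Itga3 at −1.77, Cd47 at 1.00 and Itgb1, the common integrin beta chain, at −0.76. Of the TGF-beta and control genes 4 rose and 7 fell. Prrx1, a mesenchymal transcription factor that also stands among the fibroblast markers, rose by 1.86 (221 to 804 CPM), Egr1 by 1.52, and Smad7, an inhibitor of TGF-beta signalling, fell by 0.92. In WT cells the counts were 4 higher and 10 lower of the other adhesive glycoproteins, led by Fbln5 (−0.82), Tgfbi (−0.68) and Efemp2 (−0.55), then 1 and 4 of the receptors, led by Cd47 (−0.52), Cacna2d1 (0.76) and Cd44 (−0.27), and 1 and 5 of the TGF-beta and control genes, led by Egr1 (−1.16), Tgfb3 (−0.47) and Srf (0.48), beside 17.8% over all genes. The difference of CP1 effects was called as more positive in DKO cells for 19 and as more negative for 3 of the other adhesive glycoproteins. It was so for 6 and 3 of the receptors and for 5 and 6 of the TGF-beta and control genes, beside 42.4% of all genes called, 20.1% as more positive and 22.3% as more negative. Under CP1, DKO cells were higher than WT cells in 5, 5 and 8 genes of the 3 lists and lower in 20, 12 and 5, beside 59.5% of all genes called, 28.9% as higher and 30.6% as lower.

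Likeness of pattern was measured as the root mean square difference of centred log2 levels over the 8 groups, among 10474 genes. Sparc had the closest neighbours, Ifnar2 at 0.06, Rcn3 at 0.06 and Pcmtd2 at 0.06, followed by Thbs3 with Gxylt2 at 0.07 and Fn1 with Dhrs7 at 0.08. The gene nearest to Thbs1 was B4galnt4 at 0.11, and Rassf2 at 0.10 was nearest to Tnxb, Elf1 at 0.17 to Tnc, Dchs1 at 0.19 to Thbs2 and Sirt1 at 0.24 to Spp1. Postn and Thbs4 had no close neighbour among the genes searched, with Gprin3 at 0.36 and Phf11d at 0.77 the nearest. Only genes above a minimum mean level were searched. The DKO values of Thbs4 rest on almost no reads and on the constant added before the log. These are descriptions over groups that share libraries and carry no test.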

How the data were processed

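The deposited counts are whole numbers of reads per gene, not normalized, made with featureCounts 1.5.2 on mm10, per the submitters' processing notes. The aligner and strand setting are not given in the sources used here. The deposited TPM values are the authors' counts over gene length scaled to a common total, a relation that was checked on the values. Groups came from the sample titles, because the WT DMSO descriptions state no day. Counts were scaled by TMM and tested with edgeR 4.0.16 (robust quasi-likelihood fit, R 4.3.3), with Benjamini-Hochberg adjustment over the 16595 genes that passed edgeR's filter (minimum count 10, minimum total 15), and a threshold of 0.05.

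Genotype and CP1 comparisons used 4 means of genotype and treatment with a centred day term per genotype (6 residual degrees of freedom). A fit with a mean for each of the 8 groups (4 residual degrees of freedom) gave the contrasts between days. The first fit takes the effect of day to be the same with and without CP1, and the second takes single DMSO libraries to scatter as the CP1 repeats do. A fold change is given in log2 units with an SE derived from its F statistic. Thbs4 was not read where both sides held 3 counts or fewer, and between genotypes it is given as a ratio of counts with no call. Exact binomial intervals cover counting error only, since reads are not independent molecules. At these depths Tnxb had 62 to 404 reads per library. Depth limited mainly Thbs4, Thbs2 and Tnxb in DKO cells.

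On log2(TPM + 1) the change of a low gene is understated. Alternatives were 8 group means, DESeq2 1.42.0, upper quartile scaling, no filter on low counts, limma 3.58.1 on log2(TPM + 1) and log2(TPM + 0.1), the 4 DMSO libraries alone, the 8 CP1 libraries with and without a replicate block, and leaving out each library. TPM rescaled over protein-coding genes and the 8 CP1 libraries without a block were added after the data were seen. The scripts were tested on simulated counts with 200 changed genes. The simulated spread between libraries was smaller than in the data, and CP1 effects were set alike on both days. The simulation therefore does not show how often real changes of these genes are found. All 10 genes are named, and of each related list the 3 called genes with the smallest p in a comparison. Genes and lists were chosen with earlier results of these data known. Fbln1, Nid1, Prrx1 and single markers named elsewhere with their values were picked after these were seen.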

Additional observations from a re-analysis of the deposited data

Results flagged for a closer look

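The CP1 effect in DKO cells differed from that in WT cells past the threshold of edgeR's test of the difference for 6 of the 9 genes read, with values, DKO minus WT on the log2 scale, of 5.34 for Postn, 1.99 for Thbs2, 1.30 for Fn1, 1.29 for Tnc, 1.22 for Thbs3 and 0.99 for Sparc. Every value is positive, beside 42.4% of all genes called, 20.1% as more positive and 22.3% as more negative.

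The change from 2 to 4 days of CP1 differed between DKO and WT cells for 6 of the 9 genes, beside 10.1% of all genes called. The differences, DKO minus WT on the log2 scale, were 0.80 for Postn, 0.49 for Sparc, 0.44 for Thbs1, −0.54 for Tnc, −0.62 for Fn1 and −1.41 for Spp1. That of Thbs1 lost its call without the first WT CP1 library of 2 days (0.43, adjusted p = 0.0535). On the log2(TPM + 1) scale the calls of Thbs1, Tnc, Sparc and Fn1 were lost.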

How the results depend on the processing

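Of 1502 alternative values for single genes, 1372 kept their direction and side of the threshold, 52 gained and 50 lost a call in the same direction, and 28 changed sign. Differences between repeats, taken over all genes tested, had correlations of −0.04 to 0.017 between groups. They include the counting noise of genes with few reads, so such values cannot exclude that repeat numbers pair the samples. A fit of the 8 CP1 libraries with a replicate block was read for the genotypes under CP1, days in WT, days in DKO and their difference. In that order it called 9 (Thbs4 left out), 7, 7 and 6 of the genes, and 11800, 2938, 4370 and 2044 of all genes. The same 8 libraries without a block gave 11733, 2560, 4032 and 1707 of all genes, and the reported fits 9872, 2532, 4012 and 1678. For CP1 in WT cells all genes called numbered 2954, and 5987 with 8 group means, 1853 on log2(TPM + 1) and 1626 on log2(TPM + 0.1). For days in WT the 2532 became 1203 with DESeq2, 602 and 525 on the 2 TPM scales and 1396 on rescaled TPM. For days in DKO the 4012 became 2133, 769 and 680, and for their difference the 1678 became 854, 416, 369 and 819. On both TPM scales 2 of the genes were called in each of the last 2 comparisons. With a library left out, the genes called for CP1 in WT numbered 2 to 7 and all genes 1248 to 5226, and for days in WT, in DKO and their difference all genes numbered 1179 to 3624, 2206 to 4403 and 985 to 2663. On log2(TPM + 1) the median of all genes was −0.23 for the genotypes under DMSO, −0.14 for CP1 in WT, 0.23 for CP1 in DKO, 0.38 for their difference, 0.19 for the genotypes under CP1, −0.13 for days in WT and 0.15 for the difference of days, against −0.06, 0.01, 0.02, 0.01, −0.01, −0.00 and 0.00 in the reported fits. The share of higher calls moved, in the same order, from 48.4% to 34.7%, 42.1% to 7.77%, 46.7% to 79.8%, 47.5% to 91.3%, 48.6% to 69.4%, 45.9% to 10.1% and 53.1% to 66.3%, and from 50.2% to 33.3% for days in DKO. On rescaled TPM it was 69.6% for CP1 in WT, 75.3% for CP1 in DKO and 63.8% for their difference. All sign changes were of uncalled values. CP1 in DKO: Thbs1 was 0.29 on both TPM scales, 0.28 rescaled, 0.034 with upper quartile scaling and −0.12 to 0.082 with a library left out. CP1 in WT: Thbs2 was 0.027 on rescaled TPM and −0.34 to 0.16, and Spp1 −0.77 to 0.35, with a library left out. Genotypes under CP1: Fn1 was 0.023 on both TPM scales. Days in WT: Tnxb was −0.029 on TPM + 0.1 and −0.026 on TPM + 1, and Fn1 0.0014 with DESeq2, 0.019 on rescaled TPM, 0.0053 without a filter and −0.054 to 0.049 with a library left out. Days in DKO: Thbs3 was −0.015 to 0.087 with a library left out. Difference of days: Thbs2 was 0.018 and 0.10 on TPM + 0.1 and TPM + 1, and Tnxb −0.0034 with DESeq2, −0.026 rescaled, −0.0089 with upper quartile scaling and −0.069 to 0.084 with a library left out. The causes were not tested.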

Other observations

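The 2 WT DMSO libraries, labelled 2 and 4 days, had a smaller chi-square per degree of freedom (1.95) than any pair of repeats within a CP1 group (2.25 to 50.6). Genes under 200 bases held 22% to 23.5% of TPM in 3 of the 4 WT CP1 libraries and 1.56% in the second repeat of 2 days. The 10 adhesive glycoprotein genes together held 1.07% to 1.11% of all counts in WT DMSO libraries, 0.836% to 0.929% in WT CP1 libraries, 0.539% to 0.600% in DKO DMSO libraries and 0.918% to 1.15% in DKO CP1 libraries.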
